A study of Homo sapiens with 4 samples.

Results

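Aldo-keto reductases are NADPH-dependent enzymes that reduce aldehydes and ketones to alcohols. They act on products of lipid peroxidation, on retinaldehyde, on steroid hormones and prostaglandins, and on drugs such as anthracyclines. Several family genes, AKR1B10 and the AKR1C genes among them, are known targets of NRF2, a transcription factor that KEAP1 marks for degradation. In lung tumours they are best known as genes that are high where the NRF2 pathway is active, and A549 is known to carry a mutated KEAP1.

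The members were all probe sets that the array's annotation gives to exactly 1 of 8 named genes, AKR1A1, AKR1B1, AKR1B10, AKR1C1, AKR1C2, AKR1C3, AKR7A2 and AKR7A3. This gave 14 of 54613 probe sets that are not controls, for 6 of 19775 genes. AKR1A1 and AKR1B1 had no such probe set and are not analysed here. Of the 14, 6 were _x_at probe sets, whose probes can match other transcripts, 3 were _s_at probe sets, whose probes match several transcripts of a gene or family, and 5 had neither suffix. The genes were selected on values of these arrays, among them the difference between the lines, so that difference is described below without a test.

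The arrays came from 2 cultured human lung carcinoma lines, A549 from an adenocarcinoma and H1299 from a lymph node metastasis. The 4 groups were A549 with hMOF siRNA, A549 with scramble siRNA, H1299 with hMOF siRNA and H1299 with scramble siRNA, with 1 array each and no replicate. All cells grew in DMEM with 10% fetal bovine serum and were transfected with a lipid reagent, and hMOF is the histone H4 acetyltransferase encoded by KAT8. Each line is a single cultured line, and the time after transfection is not given in the sources used here.

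The labels were checked on the siRNA target and on line markers. Probe set 221820_s_at of KAT8 gave 106 with hMOF siRNA and 402 with scramble in A549, against 61.8 with hMOF siRNA and 241 with scramble in H1299 (limma adjusted p = 0.0115). A dim KAT8 probe set, 214885_at, fell short of the signal minimum of 78.1, with 51.6 and 61.6 in A549, against 39.8 and 61.7 in H1299. CDKN2A, which A549 is known to lack, had 46.5 and 33.5 in A549, against 1176 and 1317 in H1299 (hMOF siRNA, then scramble). Summed over 6 epithelial genes (CDH1, EPCAM, KRT7, KRT8, KRT18, KRT19), the signal was 26546 and 28772 in A549, against 2821 and 3740 in H1299. Epithelial genes thus moved between the lines along with the aldo-keto reductase genes, and their part in that difference was not tested. Over the 7 measured of 8 alveolar type II genes the sums lay at 1522 and 1772 in A549, against 1743 and 1976 in H1299. The defining NKX2-1 was between 60.8 and 72.9 on the 4 arrays, under the minimum. Sums of markers for leukocytes (5 of 5 genes measured) lay between 288 and 403 and for endothelium (3 of 3) between 340 and 380, and the leukocyte gene PTPRC was between 31.6 and 41.5. Mesenchymal genes (5 of 5) summed to 25700 and 23853 in A549, against 19444 and 19999 in H1299. The sums hide a split: FN1 and CDH2 were higher in A549 under both siRNAs, and VIM, ZEB1 and ZEB2 were higher in H1299. Fibroblast markers (5 of 5) summed to 1425 and 746 in A549, against 211 and 202 in H1299, and COL1A1 accounted for most of the A549 sums, with 1191 and 541. No marker signal was at 0, and MAS5 signals have a minimum of 1 here.

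The first comparison set A549 against H1299. The AKR1B10 and AKR1C genes stood among the widest differences between the lines, and the AKR7A genes lay close to equal. Of the 14 member probe sets, 8 were at least 2-fold higher in A549 under both siRNAs and none was 2-fold lower, against 4.56% and 3.61% of all 54613 probe sets. All 8 belonged to AKR1B10, AKR1C1, AKR1C2 and AKR1C3. Ratios are given below on the scale log2(signal + 29.06), where the added offset is the 20th percentile of all signals and keeps dim signals from giving extreme ratios.

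**Figure D1:**
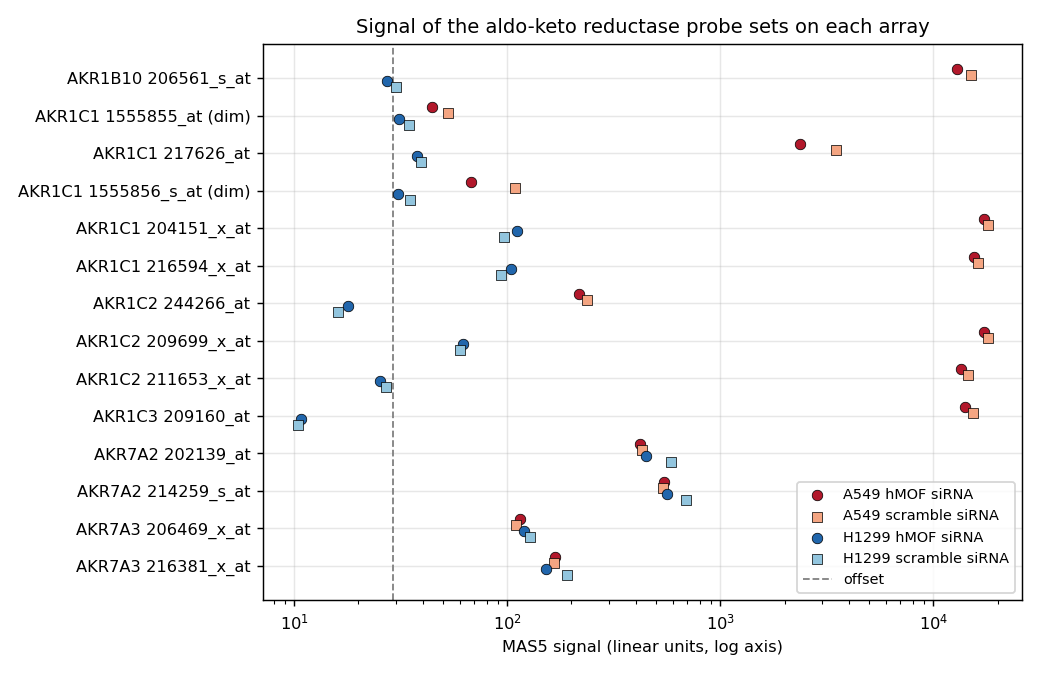
MAS5 signal (log axis) of the 14 aldo-keto reductase probe sets on each of the 4 arrays, 1 point per array, with the offset as a dashed line and probe sets under the signal minimum marked dim. The 6 probe sets with A549 signals between 12909 and 18019 had H1299 signals between 10.4 and 111, while the 4 AKR7A probe sets overlap between the lines or lie close together.

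AKR1C3 encodes an enzyme that reduces androgen precursors at the 17-keto position and makes prostaglandin F. Its single probe set, 209160_at, had a signal of 14098 with hMOF siRNA and 15314 with scramble in A549, against 10.7 and 10.4 in H1299. Both A549 arrays were high and both H1299 arrays lay under the offset, so the size of the ratio depends on how dim signals are treated. The signal ratio of A549 to H1299 was 1316 under hMOF siRNA and 1478 under scramble, and the log2 ratio was 8.54 ± 0.09 with the offset (SD, n = 2 siRNAs) and 10.45 without it. This was the highest log2 ratio of A549 to H1299 among the 27307 probe sets over the signal minimum, at rank 1 with and without the offset.

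AKR1B10 reduces retinaldehyde and aldehydes from lipid peroxidation, and is known as a gene raised in smokers' airways and in non-small cell lung tumours. Probe set 206561_s_at gave 12909 with hMOF siRNA and 15007 with scramble in A549, against 27.2 and 30.02 in H1299. The H1299 signals sat at the offset, and the lines were separated by a log2 ratio of 7.92 ± 0.10 (SD, n = 2 siRNAs; rank 4, and rank 10 with no offset).

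AKR1C2 inactivates the androgen dihydrotestosterone by reducing its 3-keto group. Its 2 _x_at probe sets gave 13396 and 14560 (211653_x_at) and 17243 and 18016 (209699_x_at) in A549 (hMOF siRNA, then scramble). In H1299 the same probe sets gave 25.4 and 26.9, and 61.9 and 59.8. The third probe set, 244266_at, gave 217 and 237 in A549, against 17.8 and 16.0 in H1299. All 3 were higher in A549 under both siRNAs, with mean log2 ratios of 7.99, 7.62 and 2.47.

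AKR1C1 reduces progesterone to an inactive metabolite at the 20-keto position. Its 2 _x_at probe sets gave 17272 and 18019 (204151_x_at) and 15417 and 16207 (216594_x_at) in A549, against 111 and 96.7, and 103 and 93.0, in H1299 (hMOF siRNA, then scramble). Probe set 217626_at gave 2371 and 3502 in A549, against 37.8 and 39.4 in H1299, a log2 ratio of 5.43 ± 0.37 (SD, n = 2 siRNAs). The 2 remaining probe sets lay under the signal minimum. Of these, 1555856_s_at gave 67.5 and 109 in A549, against 30.7 and 34.8 in H1299, with log2 ratios of 0.69 and 1.11 under hMOF siRNA and scramble. The other, 1555855_at, gave 44.5 and 52.7 in A549, against 31.0 and 34.6 in H1299, and was within 2-fold. The 5 AKR1C1 probe sets thus ran from 0.33 to 7.06 in mean log2 ratio, the widest spread within a member gene.

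The _x_at probe sets cannot be taken to separate AKR1C1 from AKR1C2, whose transcripts are near identical. Apart from them, 4 of the 8 AKR1B10 and AKR1C probe sets at least 2-fold higher in A549 remained, 206561_s_at, 217626_at, 244266_at and 209160_at. Probe set 1555854_at, which the annotation gives to both AKR1C1 and AKR1C2 and which is no member, had 2403 and 4140 in A549 against 10.9 and 6.65 in H1299. The median log2 ratio over the 14 probe sets was 3.95, and 1.69 over the 8 that are not _x_at, against 0.01 over all 54613.

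AKR7A2 reduces succinic semialdehyde and aflatoxin dialdehyde, and AKR7A3 also reduces aflatoxin dialdehyde. AKR7A2 probe set 202139_at had 419 and 427 in A549, against 446 and 588 in H1299 (hMOF siRNA, then scramble). AKR7A2 probe set 214259_s_at had 546 and 536 in A549, against 563 and 692 in H1299. On both, H1299 with scramble was the highest array. The AKR7A3 probe sets, both _x_at, gave 114 and 109 in A549 against 119 and 128 in H1299 (206469_x_at), and 168 and 165 in A549 against 152 and 191 in H1299 (216381_x_at). All 4 AKR7A probe sets were within 2-fold between the lines, with mean log2 ratios of A549 to H1299 from −0.26 to −0.03.

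The upstream sequences of the members are shown because AKR1C1, AKR1C2 and AKR1C3 differed together between the lines and the AKR7A genes did not. RefSeq promoters (GRCh38.p14) were given for 5 of the 6 measured genes, all but AKR1B10, and the first listed start of each gene was taken. Each sequence holds the 250 bases before the start, 5′ to 3′ on the gene's strand. Capitals in the AKR1C sequences mark the longest runs that the AKR1C1, AKR1C2 and AKR1C3 windows share, and capitals in AKR7A2 mark TGACNNNGC, the core of the antioxidant response element that NRF2 binds. They are AKR1C1 at chr10:4963165-4963414 (plus strand), AKR1C2 at chr10:5003858-5004107 (minus), AKR1C3 at chr10:5048531-5048780 (plus), AKR7A2 at chr1:19312147-19312396 (minus) and AKR7A3 at chr1:19288771-19289020 (minus).
AKR1C1: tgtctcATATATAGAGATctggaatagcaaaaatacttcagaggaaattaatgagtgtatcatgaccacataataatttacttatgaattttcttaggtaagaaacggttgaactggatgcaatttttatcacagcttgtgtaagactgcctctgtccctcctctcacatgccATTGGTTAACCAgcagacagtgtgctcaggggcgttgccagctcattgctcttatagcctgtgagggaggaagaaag
AKR1C2: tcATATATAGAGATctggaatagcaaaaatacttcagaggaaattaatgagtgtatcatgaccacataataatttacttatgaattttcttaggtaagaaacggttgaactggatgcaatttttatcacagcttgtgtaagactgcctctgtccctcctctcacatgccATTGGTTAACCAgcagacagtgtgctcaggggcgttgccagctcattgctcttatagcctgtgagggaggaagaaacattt
AKR1C3: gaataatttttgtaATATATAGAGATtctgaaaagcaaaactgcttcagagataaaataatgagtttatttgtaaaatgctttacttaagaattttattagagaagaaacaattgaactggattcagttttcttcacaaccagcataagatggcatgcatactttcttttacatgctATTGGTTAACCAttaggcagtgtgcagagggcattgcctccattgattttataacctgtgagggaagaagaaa
AKR7A2: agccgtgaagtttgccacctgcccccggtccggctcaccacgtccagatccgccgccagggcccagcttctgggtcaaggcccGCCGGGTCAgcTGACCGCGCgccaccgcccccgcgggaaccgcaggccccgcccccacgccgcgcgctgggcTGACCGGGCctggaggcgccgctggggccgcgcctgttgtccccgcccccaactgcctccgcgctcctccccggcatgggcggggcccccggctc
AKR7A3: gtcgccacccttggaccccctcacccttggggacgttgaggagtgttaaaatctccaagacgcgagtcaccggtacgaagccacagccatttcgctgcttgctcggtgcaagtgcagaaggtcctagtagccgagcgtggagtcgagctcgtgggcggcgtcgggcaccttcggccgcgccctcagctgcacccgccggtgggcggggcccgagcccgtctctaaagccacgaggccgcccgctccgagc

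Aligned end to end, the AKR1C1 and AKR1C2 windows were identical at 245 of 246 bases (99.6%). AKR1C1 and AKR1C3 matched at 185 of 241 aligned bases (76.8%), and AKR1C2 and AKR1C3 at 183 of 237 (77.2%). The runs shared by the 3 windows were ATATATAGAGAT and ATTGGTTAACCA, of 12 bases each. On either strand, each was found in 5 of 35116 promoter windows of this length (0.0142%), the AKR1C windows included. ATTGGTTAACCA begins 77, 81 and 73 bases before the AKR1C1, AKR1C2 and AKR1C3 starts, and opens with ATTGG, the reverse complement of the CCAAT box, which 32.0% of the windows hold. The antioxidant response core TGACNNNGC, searched on both strands, had 0 matches in the 3 AKR1C windows and in AKR7A3, and 3 matches in AKR7A2. It was found in 10.9% of all windows. These are matches of letters in a short window, and nothing here shows binding.

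The AKR1C genes lie in a cluster on chromosome 10, AKR1B10 lies on chromosome 7 and AKR7A2 and AKR7A3 lie side by side on chromosome 1. The nearest 5 protein-coding genes with a probe set of their own on each side were examined, a choice made after the line difference was seen. Beside the AKR1C cluster, 1 of 10 flanking genes was at least 2-fold higher in A549 under both siRNAs, NET1, with a mean log2 ratio of 1.96. AKR1E2, which flanks AKR1C1, had 142 and 141 in A549, against 78.4 and 71.5 in H1299, a log2 ratio of 0.71. AKR1C4, a largely hepatic steroid reductase gene of the same cluster, had 93.0 and 106 in A549, against 10.7 and 14.5 in H1299. Its mean log2 ratio was 1.63, and its mean signal of 56.1 lay under the signal minimum. Beside the AKR1B genes, 2 of 10 flanking genes were 2-fold higher, SLC35B4 (1.19) and CALD1 (1.48), and beside the AKR7A genes 0 of 10. Among all 12830 genes over the minimum 9.85% were 2-fold higher. Of the 10 flanking genes, 5 lay over the minimum at the AKR1C genes, 8 at the AKR1B genes and 10 at the AKR7A genes. The counts at the 3 loci are small and were not tested against that share. The flanking genes of the 3 loci ran from −0.75 to 1.96, whereas the probe sets of highest mean signal for AKR1B10, AKR1C1, AKR1C2 and AKR1C3 ran from 7.06 to 8.54.

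**Figure D2:**
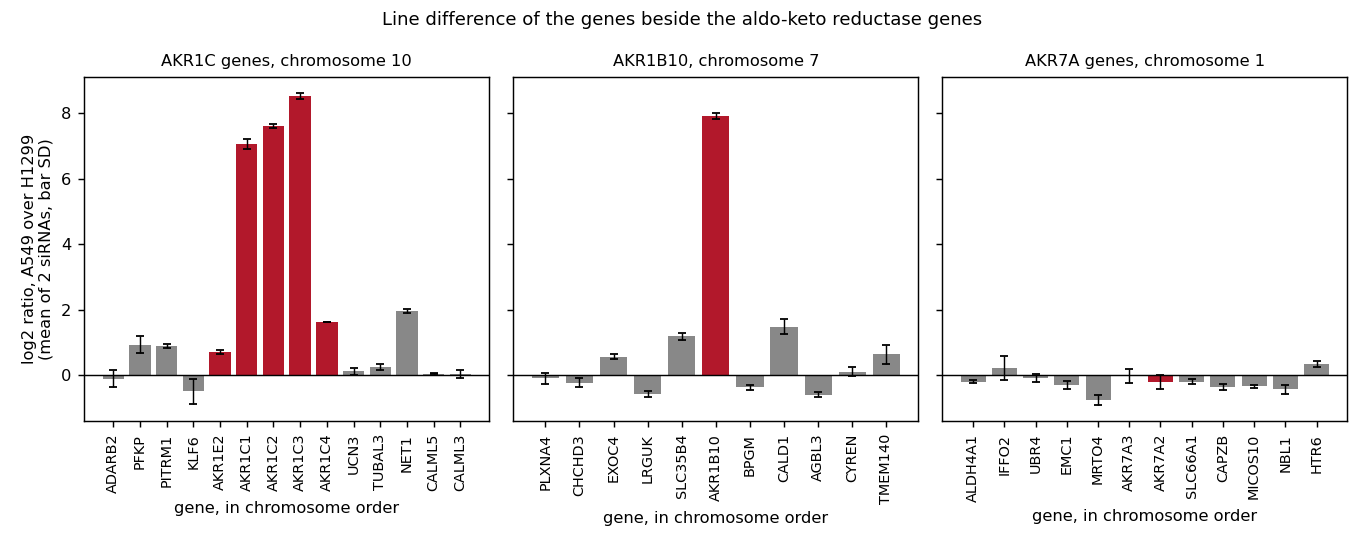
Log2 ratio of A549 to H1299 (mean of the 2 siRNAs, error bars SD) for 1 probe set per gene in chromosome order around the AKR1C genes, AKR1B10 and the AKR7A genes, with family genes in red. AKR1C1, AKR1C2, AKR1C3 and AKR1B10 stand at 7.06 to 8.54, and the flanking genes in grey between −0.75 and 1.96.

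Genes with the pattern most like AKR1B10 and AKR1C3 over the 4 arrays were found by the distance between log2 profiles centred on their means, with 1 probe set for each of 12830 genes. For AKR1B10 the nearest were KYNU, a kynurenine pathway hydrolase (distance 0.23), the retinaldehyde dehydrogenase ALDH1A1 (0.32), AKR1C2 (0.33), the surface glycoprotein CD24 (0.55) and AKR1C3 (0.63). For AKR1C3 the nearest were ALDH1A1 (0.32), AKR1B10 (0.63), KYNU (0.85), AKR1C2 (0.92) and CD24 (1.17). ALDH1A1 gave 13487 and 15981 in A549, against 19.3 and 20.1 in H1299 (hMOF siRNA, then scramble). KYNU gave 6666 and 7598 in A549, against 5.11 and 5.72 in H1299. With 4 arrays of 2 lines, such likeness rests mainly on the size of the line difference.

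The second comparison asked how the members differed with hMOF siRNA. No member probe set passed limma's test over both lines. The test took cell line as a block, and 5.95% of the 27307 probe sets over the signal minimum passed it, 1.93% as higher and 4.01% as lower. Of the 14 members, 12 were over the minimum. For 6 of these (AKR1B10 206561_s_at, AKR1C1 217626_at, all AKR1C2 probe sets and AKR1C3 209160_at) this was through A549 alone, since their H1299 signals of 10.4 to 61.9 lay under it, and the test averages in their dim H1299 ratios. Of the 12, 0 passed either at an adjusted p under 0.05 or at an unadjusted p under 0.05, which 23.3% of the 27307 had. Their adjusted p ran from 0.328 to 0.963. The fit was left with 1 residual degree of freedom, and a p over the threshold does not show that the genes were unaffected. None of the 14 reached 2-fold in either line, against 2.05% of all probe sets that did in at least 1 line. Among those over the minimum, 0.656% were 2-fold higher and 0.967% lower in A549, and 1.14% and 1.85% in H1299.

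The A549 values of the AKR1B10 and AKR1C probe sets were below 0 on 10 of 10, with a median of −0.12 as log2 of hMOF siRNA over scramble. Across all 54613 probe sets 49.1% were below 0. In H1299 it was 5 of 10, with a median of −0.01, against 48.9% of all. These probe sets share targets, so the 10 are not independent. With each array centred on its median, the count below 0 in A549 was 7 of 10, against 31.3% of all 54613 probe sets. That share includes the probe sets under the signal minimum, unlike most of the 10. The median was then −0.04, where the median over the probe sets tested was 0.05. Quantile normalization left 10 of 10 below 0 in A549, against 47.8% of all. The difference between the lines in these ratios was not tested, since no replicate of a line exists.

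**Figure D3:**
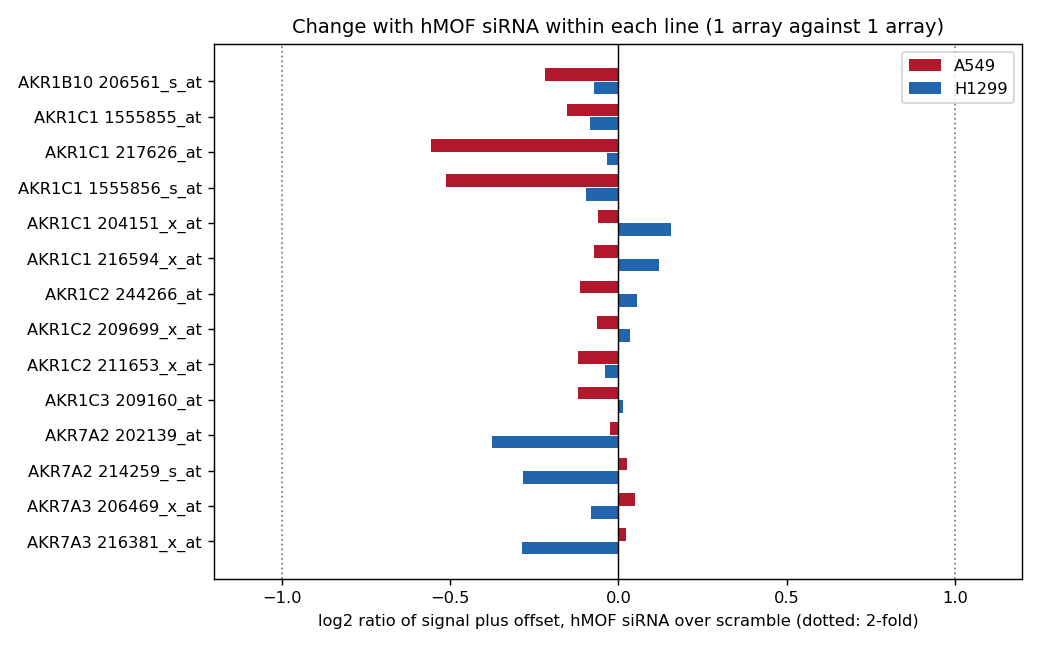
Log2 ratio of hMOF siRNA to scramble within A549 (red) and within H1299 (blue) for the 14 aldo-keto reductase probe sets, 1 array against 1 array with no error. All bars lie inside the dotted 2-fold lines; AKR1C1 217626_at in A549 (−0.56) and AKR7A2 202139_at in H1299 (−0.38) are the lowest of their lines.

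The size of the A549 value differed between probe sets of the same gene. AKR1C1 probe set 217626_at stood at −0.56 in A549, with 67.7% of the scramble signal, and at −0.03 in H1299, averaging −0.30 ± 0.37 (SD over n = 2 lines; adjusted p = 0.328 by limma). The dim 1555856_s_at stood at −0.51 in A549 and −0.10 in H1299. The shared AKR1C1 and AKR1C2 probe set 1555854_at stood at −0.78 in A549 and 0.16 in H1299 (limma adjusted p = 0.491).

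The bright probe sets varied less. The 6 probe sets with signals from 12909 to 18019 in A549 (AKR1B10, AKR1C3 and the _x_at probe sets of AKR1C1 and AKR1C2) had A549 log2 ratios from −0.22 to −0.06. Their A549 signals were at 61.4% to 85.9% of the highest signal on the array, whereas 217626_at was at 11.3% and 16.7% (hMOF siRNA, then scramble). Whether signals near the top of the scale narrow the ratios was not tested. AKR1B10 stood at −0.22 in A549 and −0.07 in H1299 (limma adjusted p = 0.537), and AKR1C3 at −0.12 and 0.01 (0.847). The H1299 signals of AKR1B10, AKR1C3, 211653_x_at and 244266_at lay near or under the offset, so their H1299 ratios are ratios of dim signals. The same holds for 1555854_at (10.9 and 6.65 in H1299, hMOF siRNA, then scramble), 1555856_s_at (30.7 and 34.8) and 1555855_at (31.0 and 34.6). Probe set 217626_at was little over the offset there (37.8 and 39.4).

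For the AKR7A genes the values below 0 lay mainly in H1299, where their signals were 119 to 692. The AKR1B10 and AKR1C probe sets had only 10.4 to 111 there, so the H1299 ratios of the 2 groups are not measured equally well. In H1299 all 4 AKR7A probe sets were below 0, from −0.38 to −0.08, where 48.9% of all probe sets were. In A549 these 4 lay between −0.03 and 0.05. AKR7A2 probe set 202139_at had 446 with hMOF siRNA against 588 with scramble in H1299, 75.9% of the scramble signal, and it averaged −0.20 ± 0.25 over both lines (SD, n = 2; adjusted p = 0.441 by limma). Probe set 214259_s_at of AKR7A2 stood at −0.28 in H1299 and the AKR7A3 probe sets at −0.29 and −0.08, none of which passed the test. All 4 stayed below 0 in H1299 after quantile normalization and after centring, which put 49.6% and 39.1% of all probe sets below 0, dim ones included. They measure 2 related genes and are not independent.

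Other family genes lay under the signal minimum on average or were close between arrays. Of 8 named, 6 had a probe set with a single gene and 3 were over the signal minimum, AKR1E2 and the potassium channel beta subunit genes KCNAB2 and KCNAB3. KCNAB2 had 139 and 174 in A549, against 62.9 and 73.9 in H1299. On the scale with the offset, none of the 3 was 2-fold between the lines under both siRNAs, although the signal ratios of KCNAB2 itself were 2.22 and 2.36, and none passed limma's test for the siRNA. AKR1C4, whose mean signal of 56.1 lay under the minimum, was higher in A549, with log2 ratios of 1.62 and 1.63 (hMOF siRNA, then scramble). AKR1D1, a reductase of bile acid synthesis, was between 3.59 and 11.02 on the 4 arrays.

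NRF2 target genes as a list were higher in A549. Of 28 genes listed, 25 were measured over the minimum, and 14 were at least 2-fold higher in A549 under both siRNAs and 0 lower, where 9.85% and 7.26% of 12830 genes were. Their median log2 ratio of A549 to H1299 was 1.46, against 0.03 over all genes, and 5 of the 25 had H1299 signals under the minimum. The list was chosen with earlier results of these arrays known, and the spread among its members was wide. The highest were the aldehyde dehydrogenase gene ALDH3A1 (5.98), the transporter genes ABCC3 (5.94) and ABCC2 (4.47), and the glutathione peroxidase gene GPX2 (5.86).

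With hMOF siRNA, 1 of the 25 NRF2 target genes was called, where 2.29% of genes were higher and 4.55% lower. It was PIR, an iron-binding nuclear protein gene, which rose by 0.50 in A549 and 1.0 in H1299 (limma adjusted p = 0.0489). The call was lost with no offset, with 1 probe set per gene and without _x_at probe sets (limma adjusted p from 0.0506 to 0.0739). The malic enzyme gene ME1 was at 0.25 and 0.88, and the glutamate-cysteine ligase catalytic subunit gene GCLC at −0.58 and −0.48 (limma adjusted p = 0.119 and 0.0553). Below 0 were 20 of 25 genes in A549 (median −0.12) and 12 of 25 in H1299 (median 0.003). Over all 12830 genes the shares were 53.6% and 51.5% and the medians −0.02 and −0.01.

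The NRF2 regulators were taken as a separate list. Of 10 measured, 0 were 2-fold apart between the lines under both siRNAs, where 9.85% of 12830 genes were higher in A549 and 7.26% lower. For a list of 10 genes this count is near those shares. The median log2 ratio of A549 to H1299 was −0.23, against 0.03 over all genes. KEAP1 and NFE2L2, which encodes NRF2, were singled out after their values were seen. KEAP1 gave 837 and 734 in A549, against 958 and 808 in H1299 (hMOF siRNA, then scramble). NFE2L2 gave 1895 and 2581 in A549, against 2975 and 2475 in H1299. The widest line difference of the list was that of the small MAF gene MAFF (−1.19), followed by the repressor gene BACH1 (−0.72) and the ubiquitin ligase genes CUL3 (−0.51) and RBX1 (−0.48). With hMOF siRNA, NFE2L1, which encodes a relative of NRF2, rose by 0.74 in A549 and 1.05 in H1299 (limma adjusted p = 0.0234). It was measured on an _x_at probe set, and the other 9 did not pass, among them BACH1 at −0.30 and −0.22 and SQSTM1, a KEAP1-binding autophagy receptor, at −0.23 and −0.22.

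Other enzymes that reduce carbonyl groups were mostly within 2-fold between the lines. Of 27 listed, 21 were measured, and only DHRS3, a retinaldehyde reductase gene, was 2-fold higher in A549 under both siRNAs (3.11), where 9.85% of all genes were, and the list median was 0.28. The next were CBR4 (1.05), whose signal ratios without the offset were 2.07 and 2.33, the dehydrogenase gene DHRS7 (0.96) and the retinol dehydrogenase gene RDH10 (0.78). CBR4, a mitochondrial quinone reductase gene, was the gene called with hMOF siRNA, with a rise of 0.59 in A549 and 0.71 in H1299 (limma adjusted p = 0.0355, and 0.0545 with 1 probe set per gene). HSD17B1 was at 0.36 and 0.48 and HSD17B12 at −0.57 and −0.18, and neither passed.

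Genes of polyol and prostaglandin metabolism, the pathways of AKR1B1 and AKR1C3, were split. Of 15 listed, 12 were measured, and 5 were 2-fold higher in A549 under both siRNAs and 0 lower, against 9.85% and 7.26% of all genes. The list median was 0.55, and 4 of the 12 had H1299 signals under the minimum. The 5 included HPGD, which degrades prostaglandins (6.27), the phospholipase gene PLA2G4A (5.88), the cyclooxygenase gene PTGS2 (5.63) and the prostaglandin E synthase gene PTGES (4.82). None of the 12 passed the siRNA test, and 1 had an unadjusted p under 0.05 by limma. The prostaglandin reductase gene PTGR2 was at 0.41 in A549 and 0.40 in H1299 (limma adjusted p = 0.0990), the transporter gene ABCC4 at −0.62 and −0.02, and PTGES at −0.02 and −0.36.

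**Figure D4:**
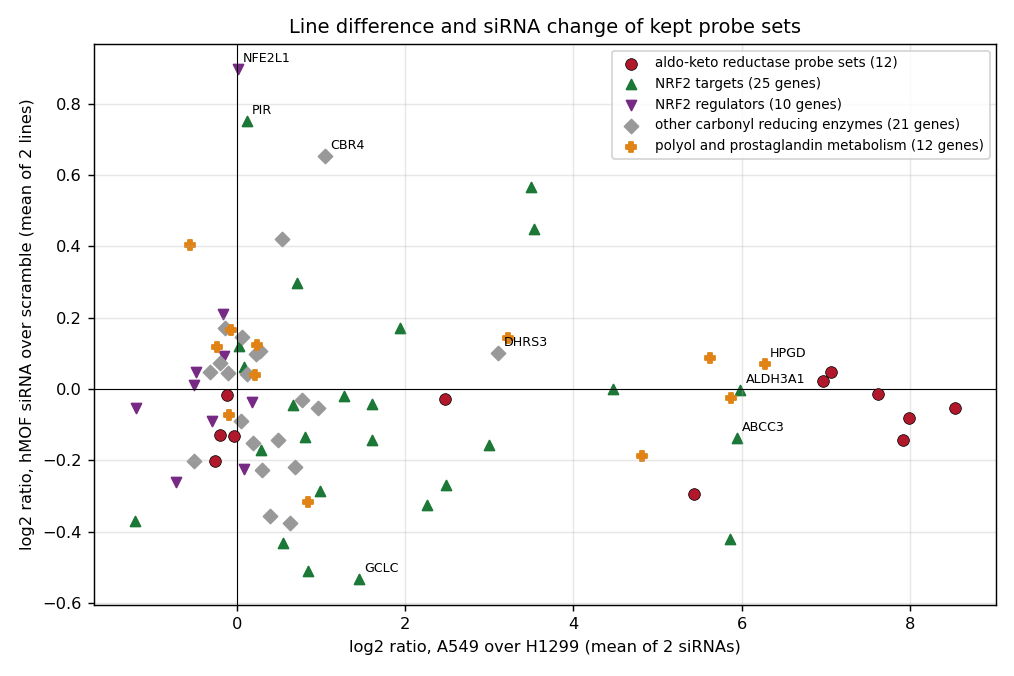
Mean log2 ratio of A549 to H1299 over the 2 siRNAs (horizontal) against mean log2 ratio of hMOF siRNA to scramble over the 2 lines (vertical) for the 12 member probe sets over the signal minimum and the measured genes of 4 related lists. The member probe sets spread along the horizontal axis from −0.26 to 8.54 and stay between −0.30 and 0.05 on the vertical axis; PIR, NFE2L1 and CBR4, the genes that passed limma's siRNA test, lie highest.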

How the data were processed

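The deposited table holds a linear intensity (signal) for each probe set, computed by the authors with MAS5, as the submitters' processing notes say. Its version and scaling target were not given in the sources used here, and dim MAS5 signals are the least precise. Groups follow the source names of the 4 arrays. The treatment tag contradicts the source name on 2 of them and was not used. Probe sets were named through the platform's annotation (41091 with 1 gene, 1801 with several, 11721 with none, 62 controls), and symbols were looked up in RefSeq (GRCh38.p14), which changed 0. Array medians were 73.3 to 75.3, and Pearson r of log2 signals was 0.986 and 0.981 within A549 and H1299 and 0.884 to 0.894 between lines. Precision is limited by the number of arrays.

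The offset was 29.06 (20th percentile of all signals) and the minimum mean signal 78.1 (50th percentile of probe set means). The siRNA effect was fitted with limma 3.58.1 (R 4.3.3; lmFit, eBayes) to all 27307 kept probe sets, with cell line as a block, and Benjamini-Hochberg adjusted over all of them. Nothing says that cultures were repeated, so the p values reflect only how these arrays spread, which may be technical. Lists used 1 kept probe set per gene, that of highest mean signal. Sequences were aligned with Biopython 1.88, figures drawn with matplotlib 3.10.9, and the fit was tested on simulated data. The members and lists were chosen with earlier results of these data known. Named genes were KAT8, all members, the 4 widest line differences and 3 largest siRNA ratios of each list in part, and the 5 nearest patterns. Alternatives changed the offset, the filter, the scaling or the rule for probe sets, used eBayes with trend or no block, or left out each line or siRNA.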

Additional observations from a re-analysis of the deposited data

Results flagged for a closer look

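For 8 of the 14 member probe sets (57.1%) the ratio of hMOF siRNA to scramble lay on opposite sides of 0 in A549 and H1299, as it did for 39.6% of all 54613 probe sets. With 1 array per line and siRNA, the difference between the lines was not tested, and each ratio is 1 array against 1 array. The A549 minus H1299 differences in log2 ratio were negative for the AKR1C probe sets, at −0.22 (204151_x_at) and −0.19 (216594_x_at) for AKR1C1, −0.17 (244266_at) and −0.10 (209699_x_at) for AKR1C2 and −0.13 (209160_at) for AKR1C3. They were positive for the AKR7A genes, at 0.31 (214259_s_at) for AKR7A2 and 0.13 (206469_x_at) and 0.31 (216381_x_at) for AKR7A3. All of these differences are small beside a 2-fold change. Their signs follow from the listing and add no separate result. Only probe sets with opposite signs are listed, and the AKR1C ones were all below 0 in A549 and the AKR7A ones in H1299. The H1299 signals of 244266_at (17.8 and 16.0) and 209160_at (10.7 and 10.4) lay under the offset of 29.06.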

How the results depend on the processing

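Under each alternative with a test, limma called 0 members and gave 0 an unadjusted p under 0.05, of 6 to 14 members tested. The siRNA ratio itself can move only with the offset, the scaling or the lines used. Under 2 other offsets, quantile normalization and centring, 6 of 48 mean ratios of the 12 members turned sign, all uncalled. They were 244266_at at 0.0114 with no offset, 0.00775 after quantile normalization and 0.0359 after centring, and after centring 209699_x_at at 0.0499, 209160_at at 0.0115 and 206469_x_at at 0.0480. With 1 line alone, 8 of the 12 stood on the other side of 0. They are the same 8 whose ratios had opposite signs in the 2 lines, so the count adds no separate result. In A549 these were 204151_x_at (−0.06), 216594_x_at (−0.07), 214259_s_at (0.03), 206469_x_at (0.05) and 216381_x_at (0.02), and in H1299 244266_at (0.06), 209699_x_at (0.03) and 209160_at (0.01).

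The median log2 ratio of A549 to H1299 over the members, 3.95, was 4.98 with no offset, 3.45 with an offset at the 40th percentile and 1.69 without _x_at probe sets, which left 4 members 2-fold higher. Under the offset and scaling settings, 37 of 56 line ratios of single members moved by less than 1 SD and 19 by more, and 0 changed sign. With hMOF siRNA arrays alone the median was 3.78 and with scramble alone 4.12.

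Over all probe sets, 1624 were called for the siRNA (67.5% of them lower). With 1 probe set per gene there were 458 (149 higher, 309 lower), with probe sets of a gene averaged 542 (181 and 361), and with no block for cell line 0 (0 and 0), with 761 at an unadjusted p under 0.05. The block pairs the arrays of a line. Without it the difference between lines enters the residual, and the KAT8, PIR, NFE2L1 and CBR4 calls were lost too. Centring gave 826 higher and 52.5% lower, and quantile normalization 58.2% lower. Probe sets 2-fold lower with hMOF siRNA in A549 numbered 264, and 409 with no offset. Signals near the offset in H1299 limit the ratios of AKR1B10, AKR1C3 and part of the AKR1C1 and AKR1C2 probe sets.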
